A study of Lumnitzera littorea with 6 samples.

Results

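The gene models described here are the 150 of *L. littorea* leaves whose expression differed least among 6 libraries, 3 from control seedlings and 3 from salt-stressed seedlings. They were chosen by their measured values. Counts were turned into CPM (the counts of a gene model divided by library size, times 1000000) with TMM scaling, which adjusts each library size so that the bulk of genes is level between libraries. Among the gene models with a mean CPM of 20 to 200, the 150 with the lowest coefficient of variation (CV, the SD over the 6 libraries as a percentage of their mean) were taken. The table holds 26139 gene models, of which 18073 had enough counts to be tested and 9085 had a mean CPM in this range.

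*L. littorea* is a mangrove tree, and the seedlings were raised for 1 year from seeds picked in the wild. Seedlings of the control group (CK) received fresh water and those of the salt stress group received 400 mM NaCl for 3 days. The labels name no other treatment, and leaf RNA of each group was sequenced in 3 libraries. The libraries held between 16273192 and 19456211 counts. Neither the labels nor the sources used here pair gene models with gene names, apart from the 63 *LlMADS* loci that the study names, so no function is given for the steady gene models. Each is called by the pair of numbers in its name, evm.model followed by a first number, read as the scaffold, and a second, read as the rank of the gene along that scaffold. Without names, the label leaf could not be checked against marker genes.

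Genes with level expression serve as internal references in quantitative PCR, where the signal of a gene of interest is divided by that of a reference measured in the same RNA. A reference is useful only if its own level does not change between the conditions compared. In plants, genes of the cytoskeleton, of protein synthesis and of protein turnover are traditional choices, and their steadiness is usually checked anew for each species and stress. Sequencing counts are relative as well, so calling a gene steady always rests on what the library sizes were scaled to. In these bulk leaf samples, fewer cells of a type and less RNA per cell cannot be told apart.

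The steadiest of the 150 was gene model 76 of scaffold 68. It had 68.8, 67.6 and 68.7 CPM in CK replicates 1, 2 and 3 and 68.5, 68.2 and 68.8 CPM in salt stress replicates 1, 2 and 3, a CV of 0.696%. The groups overlapped, and the lowest and the highest values, in CK replicate 2 and salt stress replicate 3, were 1.02-fold apart. Its log2 fold change, salt stress over CK, was 0.0034 with a 95% interval from -0.090 to 0.097 in the edgeR fit. These intervals, here and below, describe gene models that were picked for small differences and are no test of them.

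The next 4 in the order of CV had different levels. The CPM of gene model 153 of scaffold 41 was 155, 156 and 158 in CK and 158, 157 and 159 in salt stress (CV 0.931%). The lowest value was in CK replicate 1, and the groups overlapped. The CPM of gene model 672 of scaffold 7 was 58.0, 57.2 and 57.6 in CK and 58.7, 58.3 and 58.8 in salt stress (CV 1.05%). Here all 3 salt stress values were above all 3 CK values, although the group means of 57.6 ± 0.414 and 58.6 ± 0.276 CPM (SD, n = 3 each) were only 0.024 apart on the log2 scale. The CPM of gene model 301 of scaffold 42 was 78.9, 80.2 and 80.8 in CK and 79.9, 81.0 and 81.2 in salt stress (CV 1.08%). For gene model 306 of scaffold 40 it was 190, 191 and 192 in CK and 187, 192 and 191 in salt stress (CV 1.09%), with salt stress replicate 1 as the lowest value. All 5 were again among the 150 when any 1 of the 6 libraries was left out. This largely follows from their low CVs, since leaving out 1 of 6 values can raise an SD only slightly.

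The highest mean among the 150 belonged to gene model 261 of scaffold 93, whose CK mean was 197 ± 3.06 CPM and whose salt stress mean was 198 ± 5.37 CPM (SD, n = 3 each). The lowest belonged to gene model 247 of the same scaffold, whose CK mean was 21.6 ± 0.255 CPM and whose salt stress mean was 21.5 ± 0.532 CPM (SD, n = 3 each). Between them the members had a median of 78.6 CPM, against 47.8 CPM for all 9085 gene models in the range. A single member was counted between 335 and 4067 times in a library. For each member the highest CPM was at most 1.08-fold the lowest, with a median of 1.05-fold.

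**Figure D1:**
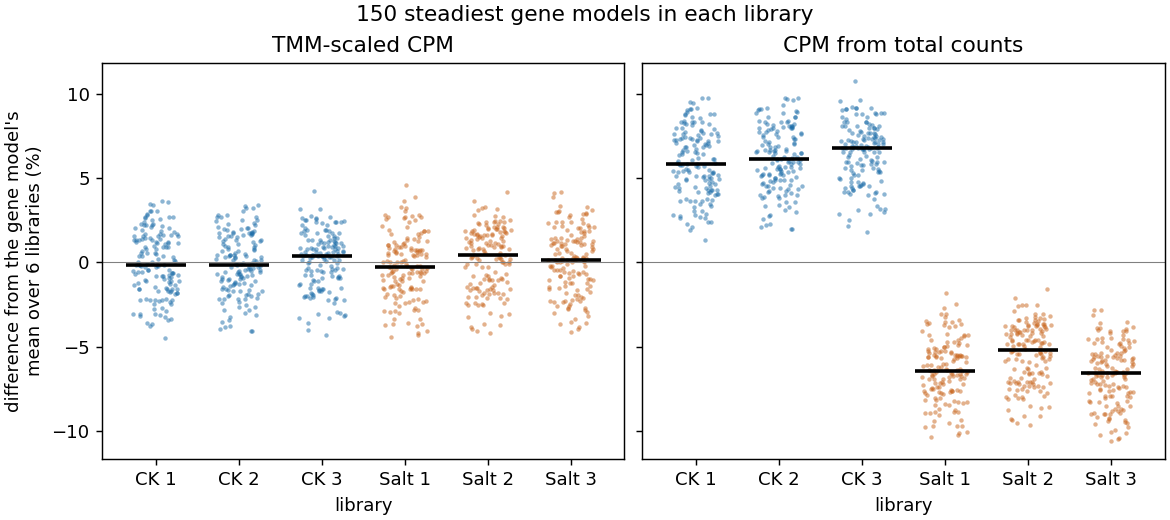
Each point is 1 of the 150 steadiest gene models in 1 library, as the difference in percent (y axis) between its CPM there and its own mean over the 6 libraries, with CK libraries in blue, salt stress libraries in orange and the median as a black bar. With TMM scaling (left) the medians lie between -0.293% and 0.455%, while with total counts (right) they lie from 5.86% to 6.78% for CK and from -6.57% to -5.21% for salt stress.

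The spread of the members over the libraries is a description too, since a low CV over the same 6 libraries keeps each of them near the others. The highest value of a member was found in CK replicates 1, 2 and 3 for 26, 24 and 20 members and in salt stress replicates 1, 2 and 3 for 21, 29 and 30 members. The lowest value was spread alike, over 19 to 30 members per library. The summed CPM of all members ranged from 13345 in salt stress replicate 1 to 13436 in CK replicate 3. Within groups the median CV of a member was 1.66% in CK and 1.88% in salt stress, close to the median of 2.04% over all 6 libraries.

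Since the 6 values chose the members, their comparison between the groups is a description. None of the 150 exceeded a 2-fold change with an adjusted p under 0.05 in edgeR's quasi-likelihood test, the thresholds that 19.3% of all tested gene models passed. The number with an adjusted p under 0.05 was 0 in edgeR and 0 in DESeq2, where 72.4% and 65.9% of all tested gene models had such a p, and 0 had an unadjusted edgeR p under 0.05, against 74% of all. The groups did not overlap for 20 of the 150 (13.3%), against 74% of all tested gene models. These shares follow from the choice, and nothing is read from them. The log2 fold changes of the members ranged from -0.055 to 0.057 with a median of -0.00045, and 73 were above 0 and 77 below it. The median of all tested gene models was -0.0032.

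The members farthest from level still differed between the groups by less than 5% of their mean. The lowest log2 fold change, -0.055, was that of gene model 51 of scaffold 64270, with 26.1, 26.2 and 26.3 CPM under CK and 25.1, 25.2 and 25.4 CPM in salt stress. It was followed by gene model 520 of scaffold 41 with -0.054, from 145, 146 and 142 CPM under CK and 139, 140 and 139 CPM in salt stress. Both had every salt stress value below every CK value. The highest, 0.057, were those of gene model 1250 of scaffold 3, at 91.8, 91.3 and 90.0 CPM under CK and 94.6, 94.6 and 94.8 CPM in salt stress, and of gene model 297 of scaffold 64488, at 144, 143 and 144 CPM under CK and 147, 148 and 152 CPM in salt stress. In these the salt stress values were all above the CK values. The 95% intervals of all 150 log2 fold changes together spanned -0.19 to 0.17.

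The limit of the choice fell at a CV of 2.54%, where gene models lay close together. Just inside it, gene model 462 of scaffold 45 had a CV of 2.54% and gene model 18 of scaffold 1 also had 2.54%. Just outside it, gene model 40 of scaffold 64487 had 2.56% and gene model 834 of scaffold 5 had 2.56%. Of the 9085 gene models in the range, 1252 had a CV of at most 5% and 3901 of at most 10%. The median CV in the range was 11.5%. Over the whole range, whatever the CV, an adjusted p under 0.05 was found for 6877 of the 9085 in edgeR. This was not counted by size of CV, so it does not tell how many at a given CV were level between the groups.

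Counting error sets a floor to what a CV of 6 libraries can show. If a gene model varied by counting error alone, the CV of its CPM would be near 2.68% at the median member, and between 1.69% and 5.12% over the members. The observed CV was below this value for 128 of the 150 members (85.3%), against 405 of the 9085 gene models in the range (4.46%). The median ratio of the observed to the counting CV was 0.751 among the members and 3.44 in the range. For gene model 76 of scaffold 68 the counting CV was 2.87%, against an observed CV of 0.696%. The order among the 150 is therefore not resolved at this depth, and a CV under the counting error does not measure the biological spread of a gene.

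**Figure D2:**
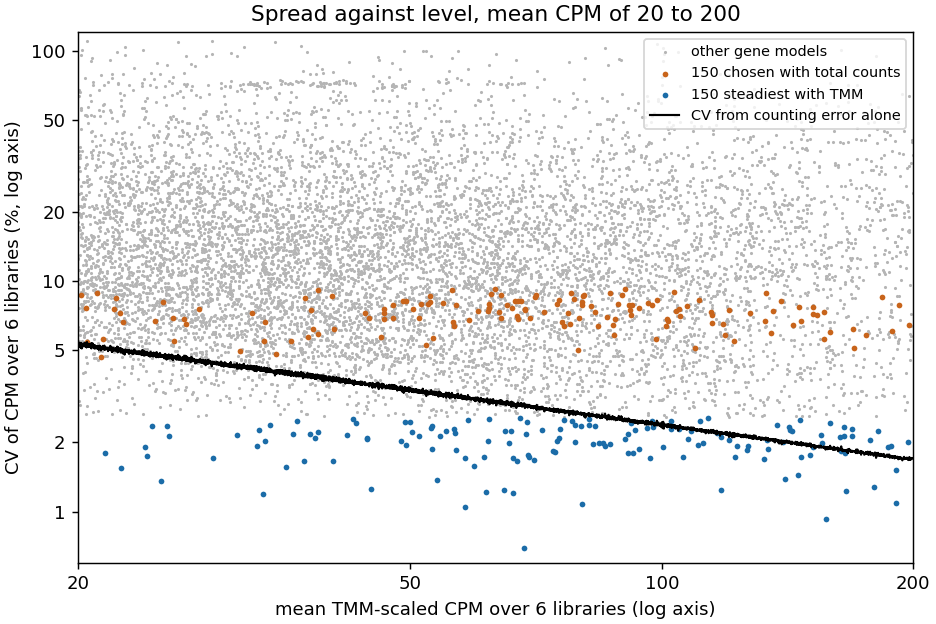
Each point is a gene model with a mean CPM of 20 to 200 (x axis, log scale) and its CV over the 6 libraries with TMM scaling (y axis, log scale), with the 150 steadiest in blue, the 150 chosen with total counts in orange, others in grey and the CV that counting error alone would give as a black line. Of the blue points 128 lie below the line, while the orange points lie at CVs of 4.67% to 9.28%.

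Level and choice were linked in the same way. Between 100 and 200 CPM, where counting error is lowest, 53 of 1496 gene models (3.54%) were members. The share was 64 of 2824 (2.27%) between 50 and 100 CPM and 33 of 4765 (0.693%) between 20 and 50 CPM. The median CV of all gene models hardly differed between these classes, at 11.3%, 10.8% and 12.1%. When gene models were ranked by the variance in excess of counting error, 49 of the 150 were kept, and the median level of the list fell from 78.6 to 28.2 CPM. This excess was negative for 405 gene models in the range, so all 150 of that list varied less than counting error. Its order is therefore not resolved either, and it does not show which genes are steadier.

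A library that took no part in the choice gives values that the choice did not use. The 150 were chosen again on 5 libraries, and the CPM in the left-out library was compared with the mean of the other 5. The median absolute log2 ratio was 0.043, 0.042 and 0.037 when CK replicate 1, 2 or 3 was left out, and 0.049, 0.043 and 0.057 when salt stress replicate 1, 2 or 3 was left out. For all gene models in the range it was between 0.17 and 0.18. Within the 5 libraries that chose, a similar but not identical measure was only 0.019 to 0.023. There each library was compared with the mean of the rest, and a median over libraries was taken for each gene model first. In the left-out library, counting error alone would give 0.029 to 0.031. Chosen gene models were closer to level in the left-out library than the range as a whole (1.03-fold against 1.13-fold in CK replicate 1). The gap to the range is partly fixed by the choice, since the other libraries of the same group took part in it. By these measures, the chosen gene models were farther from level in the left-out library than in the libraries that chose them. The largest single deviation was 1.35-fold, in salt stress replicate 3. This was also the library whose absence changed the list most.

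**Figure D3:**
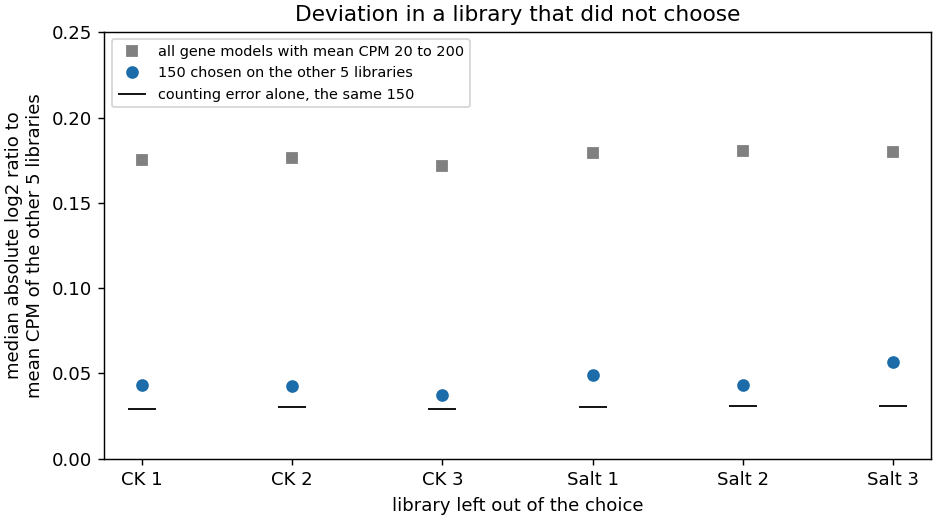
For each library left out of the choice (x axis), the y axis gives the median absolute log2 ratio of its CPM to the mean of the other 5 libraries, for the 150 chosen on those 5 (blue circles), for all gene models with a mean CPM of 20 to 200 (grey squares) and as counting error alone would give for the 150 (black dashes). The circles lie between 0.037 and 0.057, above the dashes at 0.029 to 0.031 and below the squares at 0.17 to 0.18.

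The deviation in the left-out library was also computed for summed candidates. Its largest size over the 6 libraries was smaller for the sums of 10 and of 150 than for a single one. This did not hold in each library, as salt stress replicate 3 had 0.663% for the single one and 0.749% for the sum of 10. The TMM factors were computed on all 6 libraries and level the bulk of genes, so the scaling itself may hold a sum of many gene models near level. With the single lowest CV on 5 libraries as the reference, the left-out value differed from the mean of the others by -4.68% to 0.663% over the 6 libraries. For the sum of the 3 lowest it was -2.62% to 3.38%, for the sum of the 10 lowest -1.06% to 0.749%, and for all 150 together -1.08% to 0.482%. Of the 150 main members, 60 were also chosen without each of the 6 libraries, and 27 appeared in only 1 of these 6 lists. For the lowest CVs, being kept largely follows from the choice.

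The choice depended on scaling above all. With size factors by median of ratios, the scaling of DESeq2, 140 of the 150 were chosen again (93.3% of each list). With upper-quartile scaling, which sets the 75th percentile level, it was 82 (54.7% of each list). With total counts alone, which leave the library sizes as they are, it was 0. No gene model was therefore among the 150 under TMM, median of ratios and total counts together. Ranked by CV with total counts, the members held places between 823 and 2860 of 9093 in that range, with a CV of 4.67% to 8.90%.

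The shift behind this was common to all gene models, since a change of scaling moves every one by the same factor. The counts that follow are therefore fixed by the choice of level gene models with TMM and are no separate evidence. With total counts all 150 members were lower in salt stress, their log2 fold changes ranging from -0.23 to -0.12 with a median of -0.18, and the groups did not overlap for any of the 150 (50.6% of all tested gene models were separated in this direction). An adjusted p under 0.05 in this direction was found for 149 of them in edgeR, as for 50% of all tested gene models. The median of all tested gene models moved to -0.18 as well, so the members were level relative to it under both scalings. The 150 members took 1.42% to 1.43% of all counts under CK and 1.25% to 1.27% under salt stress. Beside this, the 10 most abundant gene models took 4.64% to 4.76% under CK and 7.35% to 7.81% under salt stress, and the TMM factors ran from 1.06 to 1.07 for CK and from 0.934 to 0.946 for salt stress. The part of these abundant genes in the shift was not tested.

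For gene model 76 of scaffold 68 this meant 73.0, 71.9 and 73.2 CPM under CK and 64.4, 64.5 and 64.3 CPM in salt stress with total counts, and a CV of 6.66% in place of 0.696%. The 3 salt stress values were then all below the CK values. Its rise was the largest among the members in relative terms, followed by that of gene model 153 of scaffold 41, from 0.931% to 6.36%. In percentage points the rise was largest for gene model 51 of scaffold 64270, from 2.13% to 8.83%, and next for gene model 311 of scaffold 97, from 2.11% to 8.76%.

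The gene models chosen with total counts showed the mirror image, again as their choice and the common shift fix it. Their leading member, gene model 700 of scaffold 11, had 136, 134 and 135 CPM under CK and 136, 137 and 136 CPM in salt stress with total counts (CV 0.873%). With TMM scaling it had 128, 126 and 127 CPM under CK and 145, 145 and 145 CPM in salt stress, a log2 fold change of 0.19 (95% interval 0.12 to 0.27). The next, gene model 31 of scaffold 64319 and gene model 147 of scaffold 89, had CVs of 1.10% and 1.11% with total counts, and log2 fold changes of 0.19 and 0.17 with TMM. All 150 of this list were higher in salt stress with TMM, by a median of 1.14-fold, and 144 had an adjusted p under 0.05 in edgeR, where 36.7% of all tested gene models had one in this direction. Nothing is read from these counts.

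**Figure D4:**
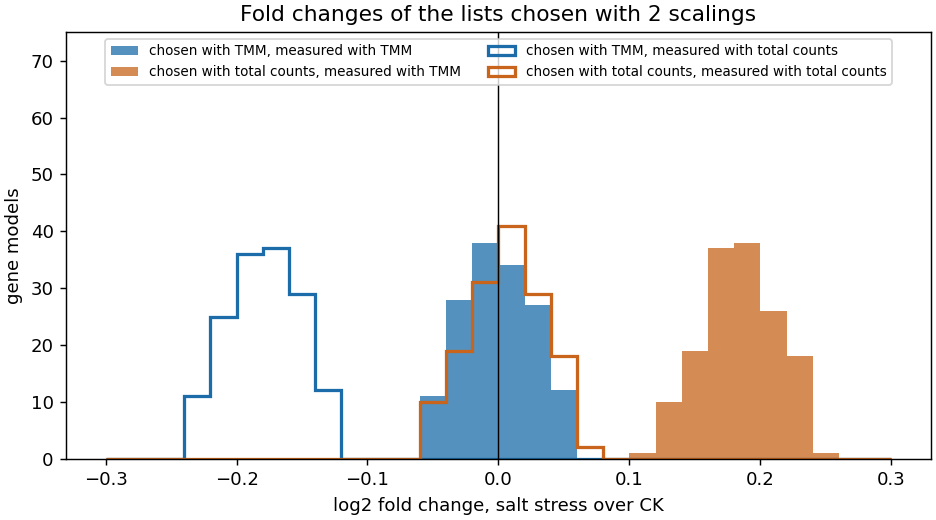
Histogram of log2 fold changes, salt stress over CK (x axis), with the number of gene models (y axis), for the 150 chosen with TMM (blue) and the 150 chosen with total counts (orange), measured with TMM (filled) and with total counts (outlines). Each list centres near 0 under the scaling that chose it, and the median moves to -0.18 for the TMM list measured with total counts and to 0.18 for the other list measured with TMM.

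Ratios of 2 gene models within a library are free of any scaling, so the lists were also compared by such ratios. Over the 11175 pairs of the 150 members, the log2 ratio changed between CK and salt stress by -0.11 to 0.11, and its SD over the 6 libraries had a median of 0.040. Over the 11175 pairs of the list from total counts the median SD was 0.044. Across the lists, each of the 22500 ratios of a gene model from total counts to a member was higher in salt stress, by 1.04-fold to 1.23-fold with a median of 1.14-fold. The direction of these ratios is fixed by the choice of the lists. Which list keeps its amount per leaf cell cannot be told apart in these counts.

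Using the members as the reference returned the scaling that had chosen them. With library sizes set to the summed counts of the 150, 3482 gene models exceeded a 2-fold change with an adjusted p under 0.05, with 2197 up and 1285 down under salt stress. With the list from total counts as the reference it was 3689, of which 1850 were higher and 1839 lower. The share that was higher thus moved from 63.1% to 50.1%. With the 10 lowest CVs alone as the reference, 3491 passed, 2195 higher and 1296 lower.

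The *LlMADS* genes, which encode MADS-box transcription factors and are the subject of the study, show what this means for a gene of interest. None of the 63 was among the 150, and 5 had a mean CPM in the range, all of Type II, the class known for its roles in flowering and floral organ identity. The steadiest was *LlMADS35* (chromosome 9), with 24.8, 26.1 and 26.6 CPM under CK and 27.8, 26.1 and 23.9 CPM in salt stress. Its CV of 5.28% put it at place 1407 of 9085, near the counting CV of 4.67%. *LlMADS59* (chromosome 12) was at place 4968, *LlMADS62* (chromosome 12) at 6264, *LlMADS2* (chromosome 1) at 7646 and *LlMADS12* (chromosome 3) at 7678.

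With each of the 150 members in turn as the sole reference, the log2 change of *LlMADS12* under salt stress lay between 0.69 and 0.80 with a median of 0.75. With gene models from total counts it lay between 0.51 and 0.63. For *LlMADS59* the values were 0.27 to 0.38 with the members and 0.081 to 0.20 with the other list. For *LlMADS62* they were -0.52 to -0.41 and -0.70 to -0.58. *LlMADS35* changed by -0.053 to 0.058 against the members, on either side of 0, and by -0.24 to -0.12 against the other list. *LlMADS2* changed by 0.67 to 0.78 and by 0.49 to 0.61. The width of these ranges and the gap between them come from the references alone and are the same for any gene, so they say nothing about the *LlMADS* genes. What differs by gene is where the ranges lie against 0, which only the range of *LlMADS35* against the members spanned.

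**Figure D5:**
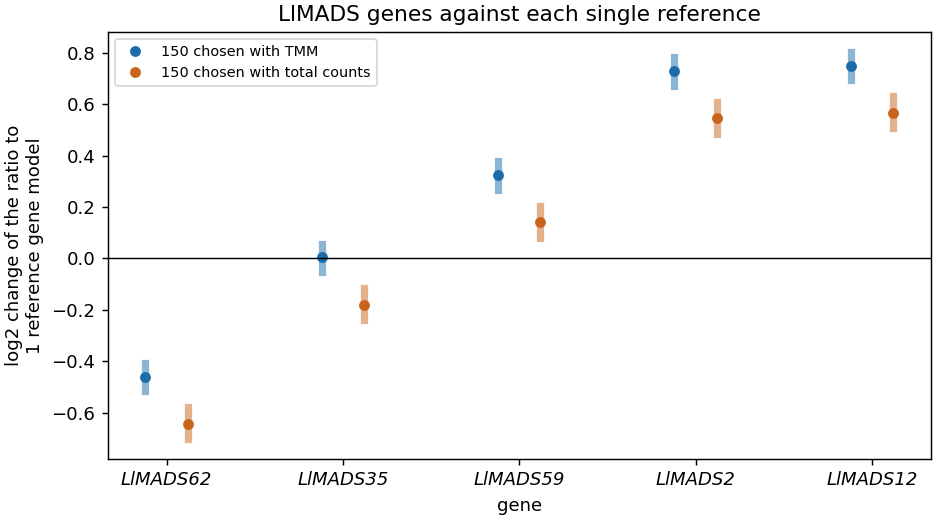
For the 5 *LlMADS* genes with a mean CPM of 20 to 200 (x axis), the y axis gives the log2 change, salt stress over CK, of the ratio to a single reference gene model, as the range (bar) and median (point) over the 150 chosen with TMM (blue) and the 150 chosen with total counts (orange). The orange bars lie lower throughout, and for *LlMADS35* the blue bar spans 0 while the orange bar runs from -0.24 to -0.12.

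The members were scattered over the genome assembly. The 150 members lay on 76 scaffolds, of 339 with a gene model in the CPM range, and 0 of them were direct neighbours. The most on a single scaffold was 7, on scaffold 14, which held 331 gene models of the range. The 10 scaffolds with the most gene models of the range held 19.3% of the members and 30.6% of the range.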

How the data were processed

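Leaf transcriptomes of 3 CK and 3 salt stress libraries were used. The authors checked reads with FastQC, aligned them with HISAT2 and counted them per gene model with featureCounts, and the deposited values are raw counts without normalization. How the counting treated strand, read pairs and reads with several matches is not stated there, so near-identical copies are uncertain. RNA came from single seedlings, and the methods state biological replicates for the salt stress group. For CK they do not, so there the p-values may rest on technical spread. From the deposited counts, gene models were filtered with filterByExpr (minimum count 10), scaled with TMM and ranked by CV in R 4.3.3 with edgeR 4.0.16. The 2 groups were tested against each other with edgeR's robust quasi-likelihood method, with condition as the only term, Benjamini-Hochberg adjustment over all 18073 tested gene models, an absolute log2 fold change above 1 and an adjusted p under 0.05. Counting CVs assume Poisson error. For the deviations in a left-out library, the factors computed on all 6 were kept. For the lists of members without a library, the filter and the factors were computed again on the other 5.

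Alternatives were other scalings, filters, measures of spread, CPM ranges, DESeq2 1.42.0, a replicate block and the omission of single libraries. The fits were tested on simulated data. The members, lists and tests were chosen with earlier results of these data known. The gene models named are the 5 lowest CVs, the extremes of mean and of fold change, those beside the limit, those whose CV rose most with total counts, the first 3 of the list from total counts and the *LlMADS* genes in the range; a further class, members kept under 3 scalings, was empty.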

Additional observations from a re-analysis of the deposited data

How the results depend on the processing

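The list shared 140 of the 150 with median of ratios, 129 without the low-count filter and 148 with a mean count of at least 10. The SD of log2 CPM, which is nearly proportional to the CV at such low values, gave the same 150. The list shared 82 with upper-quartile scaling, 0 with total counts and 49 when ranked by the CV in excess of counting error. CPM ranges of 10 to 100, 50 to 500 and 100 to 200, the last added after seeing the data, shared 97, 117 and 53, which are all the members with a mean in these ranges. Also added was a list with the lowest of the higher CV of TMM and total counts, which shared 3 and had CVs of 3.77% to 4.92% under the worse scaling. Leaving out 1 library gave 86 to 101, with 86 without salt stress replicate 3, 93 without salt stress replicate 1, 96 without CK replicate 2 and 98 without salt stress replicate 2. The number of members with an adjusted p under 0.05 was 0 in edgeR, 8 with upper-quartile scaling and 149 with total counts, and 0 without each library. Of all 18073 tested gene models, 13083 had such a p with TMM, 13160 with upper-quartile scaling and 13858 with total counts. Without each library it was 12458 to 12983, of 18229 to 18365 tested. The median log2 fold change of the members was -0.042 with upper-quartile scaling and -0.18 with total counts, and -0.0073 to 0.0022 with 1 library left out. Over all gene models 3482 passed the thresholds, between 3371 and 4261 over all fits and 3576 to 3684 with 1 library left out. With total counts 50.5% of them were higher in salt stress, against 63% with TMM. The deviation in a left-out library, 0.043 with TMM, was 0.044 with median of ratios and 0.048 with total counts.

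With the replicate block 3491 gene models passed, and 0 members had an adjusted p under 0.05. Same-numbered libraries did not deviate together (correlations of 0.050, -0.024 and 0.012), and 2 of 3 CK libraries but 1 of 3 salt stress libraries correlated best with their own number. These values show no shared deviation but cannot settle whether the numbers pair the seedlings.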
